A study of Homo sapiens with 6 samples.

Results

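The prostaglandin pathway was described in U2OS cells through 10 genes out of the 19937 genes of the count table. These were PLA2G4A, which releases arachidonate, the cyclooxygenases PTGS1 and PTGS2, the prostaglandin E synthases PTGES, PTGES2 and PTGES3, the transporter SLCO2A1, the breakdown enzyme HPGD, and the receptors PTGER2 and PTGER4. The genes were found in the table by symbol, and all 10 matched an Ensembl identifier. The pathway was chosen on the measured difference between shSQLE and shControl, in particular that of PTGS2, and the values of the 10 genes in this contrast are a description, with no p given for any of them. U2OS is an established human osteosarcoma (OSA) cell line. Poly(A) RNA was sequenced in 6 libraries, 3 of cells with a hairpin against SQLE (shSQLE) and 3 of cells with a scrambled hairpin (shControl). SQLE encodes squalene epoxidase, an enzyme of cholesterol synthesis. Both groups carried a pGIPZ lentiviral construct and had been selected with puromycin, so that infection, vector and selection were shared. Each group was a stably infected population of the same line, which of several hairpins was sequenced is not given in the sources used here, and neither is whether the libraries came from separate cultures. The SDs and p-values therefore measure the spread between these libraries, which may be technical.

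Prostaglandins are made from arachidonate, a fatty acid that cytosolic phospholipase A2 cuts from membrane lipids. A cyclooxygenase turns it into prostaglandin H2, which terminal synthases convert into prostaglandin E2 and related products. PTGS1 is made constantly in many tissues and is abundant in platelets, while PTGS2 is induced by cytokines and growth factors and is often high in tumours. In bone, prostaglandin E2 acts on both osteoblasts and osteoclasts, mainly through the receptors EP2 and EP4.

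Totals ranged from 12212378 to 14393292 counts per library, and mitochondrial genes held 5.76% to 7.74% of them. A normalized count below is the count scaled to the mean effective library size, with TMM normalization (edgeR). Library shControl replicate 1 stood apart from the other controls: its counts differed from theirs by 53.9 and 63.8 times the variance of sampling (chi-square per degree of freedom), against 2.83 between shControl replicates 2 and 3. Its distance from them differed between members of low and of high GC content, though not in step with GC for every member, as given below. A trend over all genes is not shown here. Values without shControl replicate 1 are given where a result rests on it. On the same measure, shSQLE replicate 3 differed from shSQLE replicates 1 and 2 by 9.84 and 15.9. The libraries shSQLE replicates 1 and 2 differed from each other by 3.40. Reads of SQLE had a normalized count of 1713 ± 317 (SD, n = 3) in shControl and of 217 ± 12.6 (SD, n = 3) in shSQLE. Of 12450 genes tested by edgeR's quasi-likelihood test, 354 were lower in shSQLE (2.84%) and 46 were higher (0.369%) at an adjusted p under 0.05. In 1505 genes (12.1%) all 3 shSQLE libraries were below all 3 shControl libraries. The bone and mesenchymal markers RUNX2, COL1A1, SPARC and VIM were detected in every library, but the osteoblast factor SP7 had no count, and ALPL and COL1A2 had at most 6 counts in a library. COL1A1 was lower in shSQLE (log2 fold change -0.65, adjusted p = 0.0452, edgeR), and SPARC was at -0.28 (adjusted p = 0.19) with all shSQLE libraries below all shControl libraries. Summed over each list, endothelial markers ranged from 12.7 to 17.7 normalized counts in shControl and from 4.11 to 8.81 in shSQLE, and epithelial markers from 52.5 to 55.4 and from 58.6 to 74.9. Leukocyte markers summed to 13.7 to 18.1 and 1.03 to 14.7, with PTPRC and CD3E at 0, and platelet markers to 0.981 to 3.62 and 0.979 to 4.93, with PF4 and PPBP at 0. The part of the bone, endothelial and epithelial marker differences in the values below was not tested.

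The promoters of PTGS2, PLA2G4A and PTGES, members with lower values in shSQLE, are shown because transcription factors known to act on PTGS2 were measured in the same libraries. Each sequence runs from 250 bases before to 50 bases after the start of the gene in RefSeq (GRCh38.p14), 5′ to 3′ on the strand of the gene, so that its last 50 bases belong to the first exon. Of the 10 members, 9 had an entry in the promoter table, and SLCO2A1 was the other member. Capitals mark matches to 8 short motifs searched on both strands. The motifs were NF-kB (GGG, any 4 bases, CCC), C/EBP (TTNNGNAAT), the core of the cAMP response element (CGTCA), the E-box (CANNTG), the TATA box (TATAAA), the sterol response element (TCACNCCAC), IRF (GAAA, any 2 bases, GAAA) and AP-1 (TGANTCA).
PTGS2, chr1:186680374-186680673, minus strand: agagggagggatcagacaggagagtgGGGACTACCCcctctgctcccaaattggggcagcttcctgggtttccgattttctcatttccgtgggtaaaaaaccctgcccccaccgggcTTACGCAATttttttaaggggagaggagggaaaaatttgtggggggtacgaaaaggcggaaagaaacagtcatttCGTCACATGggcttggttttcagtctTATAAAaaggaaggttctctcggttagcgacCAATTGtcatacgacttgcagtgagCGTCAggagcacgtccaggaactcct
PLA2G4A, chr1:186828699-186828998, plus strand: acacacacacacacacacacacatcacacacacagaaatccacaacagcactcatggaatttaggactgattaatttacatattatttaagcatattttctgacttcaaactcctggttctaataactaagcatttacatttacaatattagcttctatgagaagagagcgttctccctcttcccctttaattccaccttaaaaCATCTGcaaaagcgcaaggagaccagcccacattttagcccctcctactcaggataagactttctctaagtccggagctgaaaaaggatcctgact
PTGES, chr9:129752993-129753292, minus strand: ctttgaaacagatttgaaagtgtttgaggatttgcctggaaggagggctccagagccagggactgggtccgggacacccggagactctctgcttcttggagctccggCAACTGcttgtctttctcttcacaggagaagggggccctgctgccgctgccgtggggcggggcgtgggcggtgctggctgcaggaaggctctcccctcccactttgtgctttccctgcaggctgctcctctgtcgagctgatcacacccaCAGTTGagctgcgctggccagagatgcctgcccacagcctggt

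The PTGS2 window held an NF-kB match (GGGACTACCC) at -224 to -215, a C/EBP match (TTACGCAAT) at -133 to -125 and a TATA box at -32 to -27, counted from 1 at the first transcribed base with no base 0. It also held the core of the cAMP response element at -58 to -54 and at 25 to 29, and E-boxes at -55 to -50 and at -1 to 5. The first of these E-boxes overlaps the upstream cAMP element by 2 bases, so that the letters CGTCACATG hold both. The PLA2G4A window had 1 match, an E-box at -46 to -41. The PTGES window had 2 E-boxes, at -143 to -138 and at 8 to 13. Among 35116 promoters of the same length, 17.8% held the NF-kB motif, 10.998% the C/EBP motif, 24.6% the cAMP core, 11.5% the TATA box and 68.7% the E-box. The sterol response element (1.13% of promoters), the IRF motif (3.57%) and the AP-1 motif (7.71%) had no match in these 3 windows, which says only that these letters are not in them. Of the members not shown, PTGES2, PTGES3, HPGD, PTGER2 and PTGER4 also held the NF-kB motif. PTGES3, HPGD and PTGER2 held the cAMP core, and PTGES2, HPGD and PTGER2 held E-boxes. A PTGS1 window held the letters of the TATA motif on the opposite strand, at -208 to -203. This is a match of letters only, away from the position of the TATA box of PTGS2. In none of these members were all shSQLE libraries below all shControl libraries. The windows shown were picked by the values of their genes, and a relation of motifs to these values was not tested.

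PTGS2 was the member with the lowest value in shSQLE relative to shControl. PTGS2 (ENSG00000073756, hg38 chromosome 1, 186671791 to 186680922, minus strand, 10 exons in the canonical transcript of GENCODE v44) had normalized counts of 1179, 1811 and 1845 in shControl replicates 1, 2 and 3 and of 228, 173 and 208 in shSQLE replicates 1, 2 and 3. Every shSQLE library was far below every shControl library, and shControl replicate 1 was the lowest control. The means were 1612 ± 375 (SD, n = 3) and 203 ± 27.6 (SD, n = 3), so that shSQLE held 12.6% of the control level. The log2 fold change was -2.99 (SE 0.21), or 7.94-fold, against a median of -0.01 over all genes tested. In bulk RNA, fewer cells with PTGS2 and less PTGS2 RNA per cell cannot be told apart. PTGS2 has a long noncoding gene, PACERR, on the opposite strand that overlaps its exons and is not among the genes used here, and the strand setting of the counting is not given in the sources used here. Leaving out 1 library at a time gave log2 fold changes from -3.17 (without shControl replicate 1) to -2.87 (without shControl replicate 3).

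PTGS1 (ENSG00000095303, chromosome 9) was not detected. It had 0 counts in each of the 6 libraries, and a count of 0 allows up to 3 counts, or 0.201 to 0.257 CPM in a library, counts per 1000000 counts of the library. Per kilobase of transcript, this limit was 0.0401 to 0.0512 CPM in shControl, where PTGS2 had 19.4 to 30.3. The per-length level of PTGS2 was thus at least 379-fold higher than that of PTGS1 in each shControl library, and at least 65.3-fold higher in each shSQLE library. These bounds cover counting error only. The low PTGS2 level of the shSQLE cells therefore came with no detectable read of the other cyclooxygenase gene.

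**Figure D1:**
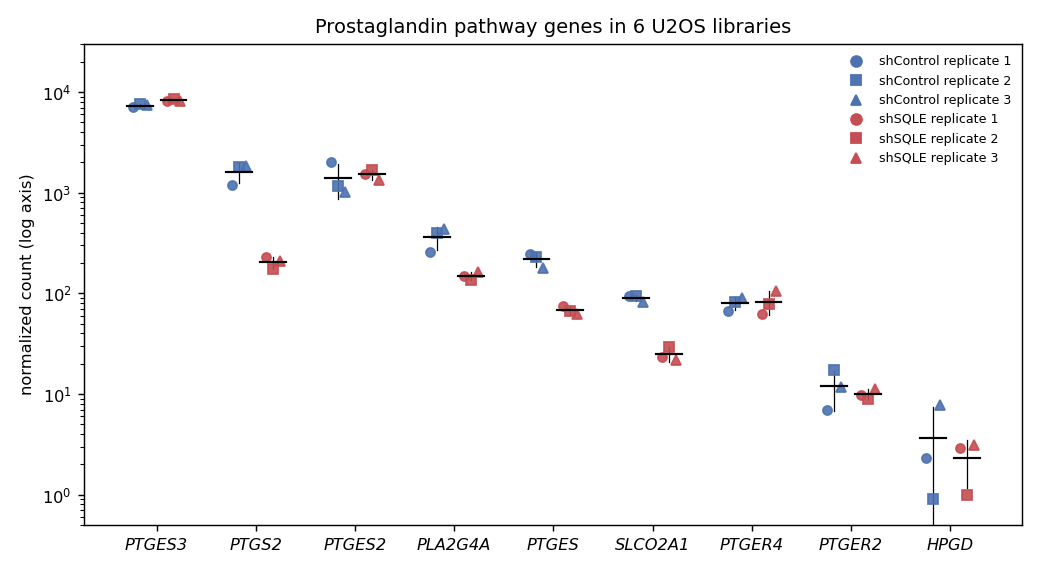
Normalized counts (log axis) of the 9 detected members in the 6 libraries, ordered by the shControl mean, with shControl in blue and shSQLE in red. Horizontal lines are group means (n = 3) and thin vertical lines are the SD, drawn no lower than the foot of the axis. The 3 shSQLE libraries lie below the 3 shControl libraries for PTGS2, PLA2G4A, PTGES and SLCO2A1, and above them for PTGES3. The groups overlap for PTGES2, PTGER4, PTGER2 and HPGD. PTGS1, at 0 in every library, is not drawn.

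PLA2G4A, the cytosolic phospholipase A2 that feeds the cyclooxygenases, was also lower in shSQLE. PLA2G4A (ENSG00000116711, chromosome 1, 186828949 to 186988981, plus strand, 18 exons) lies 148026 bp from PTGS2. Its normalized counts were 256, 400 and 432 in shControl and 148, 135 and 162 in shSQLE. The groups did not overlap, and shControl replicate 1 lay closest to the shSQLE libraries. The means were 363 ± 93.4 (SD, n = 3) and 148 ± 13.7 (SD, n = 3), or 40.9% of the control level, with a log2 fold change of -1.29 (SE 0.21). This value moved from -1.48 without shControl replicate 1 to -1.13 without shControl replicate 3. Other genes within 1000000 bp on either side that had enough reads were TPR, a protein of the nuclear pore (log2 fold change -0.03, adjusted p = 0.97), and ODR4 (-0.28, adjusted p = 0.56), and neither passed edgeR's quasi-likelihood test. Both were looked up after the values were seen.

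The 3 prostaglandin E synthases differed in level and in direction. PTGES, the microsomal enzyme that is commonly induced together with PTGS2, had normalized counts of 247, 231 and 178 in shControl and of 75.4, 67.0 and 61.7 in shSQLE. All shSQLE libraries were below all shControl libraries, and here shControl replicate 1 was the highest control. PTGES (ENSG00000148344, chromosome 9, 129738331 to 129753042, minus strand) had means of 218 ± 36.3 (SD, n = 3) and 68.0 ± 6.92 (SD, n = 3), or 31.1% of the control level, with a log2 fold change of -1.68 (SE 0.18).

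PTGES2, the membrane-associated enzyme described as constitutive, had normalized counts of 2009, 1158 and 1017 in shControl and of 1541, 1678 and 1338 in shSQLE. The groups overlapped only through shControl replicate 1, which was the highest of the 6 libraries. The means were 1395 ± 537 (SD, n = 3) and 1519 ± 171 (SD, n = 3), with a log2 fold change of 0.12 (SE 0.25). The value of PTGES2 depended on that library: leaving out shControl replicate 1 gave a log2 fold change of 0.48, and leaving out shControl replicate 3 gave -0.05. PTGES3, a cytosolic synthase that is also known as the HSP90 co-chaperone p23, was the most abundant member, with 7144, 7523 and 7345 normalized counts in shControl and 8182, 8492 and 8173 in shSQLE. All shSQLE libraries lay above all shControl libraries, by a small margin, as they did in 1247 of the 12450 genes tested. The means were 7338 ± 189 (SD, n = 3) and 8282 ± 182 (SD, n = 3), with a log2 fold change of 0.17 (SE 0.09). Processed pseudogenes of PTGES3 are annotated in GENCODE v44, and how the counting treated reads that map to several places is not given in the sources used here, so that its value is less certain. Per kilobase of canonical transcript, PTGES held 2.73%, 2.73% and 2.20% of the reads of the 3 synthases in shControl and 0.810%, 0.688% and 0.680% in shSQLE. The mean share went from 2.56% ± 0.307 to 0.726% ± 0.0726 (SD, n = 3 each). With the summed length of all exons, the shares were 3.88% to 5.10% and 1.23% to 1.48%, again without overlap.

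SLCO2A1, the carrier that takes prostaglandins back into cells, had the second largest log2 difference of the members. SLCO2A1 (ENSG00000174640, chromosome 3, 133932701 to 134052184, minus strand, 14 exons) had normalized counts of 93.5, 94.95 and 82.4 in shControl and of 23.5, 29.6 and 21.6 in shSQLE. The groups were clearly apart, and shControl replicate 1 lay between the other controls. The means were 90.3 ± 6.87 (SD, n = 3) and 24.9 ± 4.17 (SD, n = 3), or 27.6% of the control level, with a log2 fold change of -1.85 (SE 0.20). HPGD, which starts the breakdown of prostaglandins once they are inside the cell, was barely detected. It had 2, 1 and 8 counts in shControl and 3, 1 and 3 in shSQLE, too few to be tested. The ratio of the summed counts was 1.58 at equal depth, with a 95% exact interval of 0.560 to 4.81 that covers counting error only, so that no difference of HPGD was detectable at this depth.

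Of the receptors for prostaglandin E2, both members signal through cAMP, and neither separated the groups. PTGER4, which encodes EP4, had normalized counts of 67.0, 82.3 and 90.2 in shControl and of 62.7, 78.8 and 106 in shSQLE. The lowest and the highest libraries were both shSQLE. The means were 79.8 ± 11.8 (SD, n = 3) and 82.5 ± 21.8 (SD, n = 3), with a log2 fold change of 0.04 (SE 0.23) that ranged from -0.16 to 0.21 when 1 library was left out. PTGER2, which encodes EP2, had 6, 19 and 12 counts in shControl and 10, 9 and 11 in shSQLE. All shSQLE counts lay inside the range of the controls. Its log2 fold change of -0.29 (SE 0.39) became 0.07 without shControl replicate 2.

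Of the 10 members, 8 passed the filter on low counts, and the other members were PTGS1 and HPGD. At an adjusted p under 0.05, 4 of these 8 genes were lower in shSQLE, beside 2.84% of all genes tested. The groups did not overlap and shSQLE was lower in the same 4 genes, PTGS2, PLA2G4A, PTGES and SLCO2A1, beside 12.1% of all genes. Because the pathway was proposed from this contrast, nothing is read from these counts. The median log2 fold change of the 8 genes was -0.79, with values from -2.99 to 0.17.

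**Figure D2:**
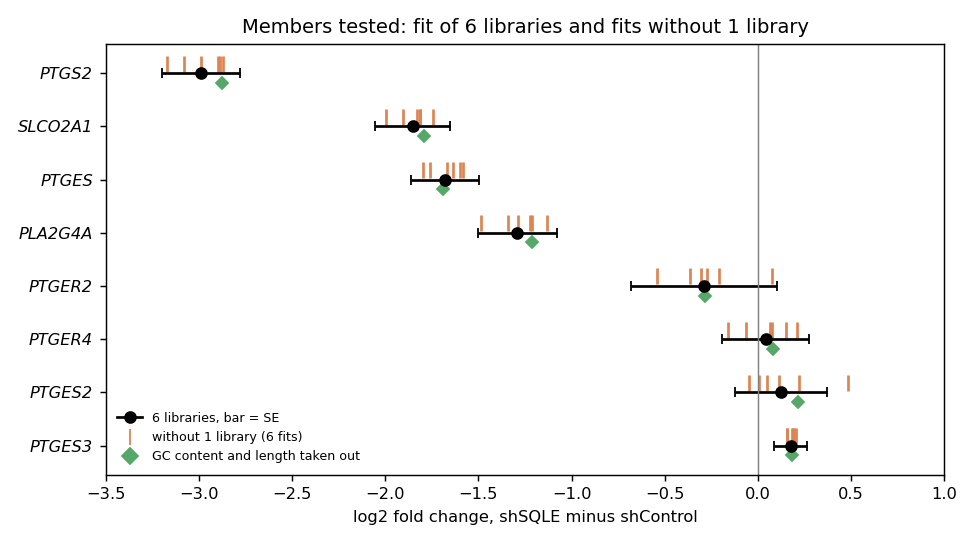
Log2 fold change of shSQLE minus shControl for the 8 members that passed the filter on low counts. Black points are the fit of all 6 libraries with the SE, orange ticks are the 6 fits that leave out 1 library, and green diamonds are a fit with trends on GC content and length taken out. PTGS2, SLCO2A1, PTGES and PLA2G4A lie between -2.99 and -1.29 and stay on the same side of 0 in every fit drawn, whereas PTGER2, PTGER4 and PTGES2 have ticks on both sides of 0.

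The members differed in how library shControl replicate 1 departed from the other controls, and they differed in GC content. PTGS2 (36.8% GC in the transcript) had in that library 0.645 times the mean normalized count of shControl replicates 2 and 3, and PLA2G4A (39.0% GC) had 0.617 times. At the other end, PTGES (56.4% GC) had 1.21 times and PTGES2 (65.0% GC) 1.85 times. SLCO2A1 (54.9% GC) was near 1, at 1.05 times, and PTGES3 (40.1% GC) at 0.961 times. The receptors PTGER2 and PTGER4 (49.5% and 49.7% GC) had 0.479 and 0.776 times, the first on few counts. With smooth trends on GC content and transcript length taken out of each library, an alternative chosen after seeing the data, the log2 fold changes were -2.88 for PTGS2, -1.69 for PTGES, -1.79 for SLCO2A1 and -1.21 for PLA2G4A. Under the same correction PTGES2 was at 0.21.

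Levels were compared between members only per length, as CPM per kilobase of canonical transcript. In shControl, PTGES3 was first at 287 ± 7.40, followed by PTGES2 at 64.7 ± 24.9 and PTGS2 at 26.5 ± 6.17 (SD, n = 3 each). PLA2G4A at 9.34 ± 2.40 and PTGES at 9.25 ± 1.54 came next and did not differ beyond their spread. PTGER4 at 1.73 ± 0.256 and SLCO2A1 at 1.65 ± 0.125 overlapped, followed by PTGER2 at 0.361 ± 0.155 and HPGD at 0.104 ± 0.104, which also overlapped. In shSQLE, PTGS2 had a level of 3.34 ± 0.454, below the mean of PLA2G4A at 3.82 ± 0.353 and above that of PTGES at 2.88 ± 0.293. The ranges of PTGS2 overlapped with those of both neighbours in shSQLE, while in shControl its lowest level, 19.4, was above the highest of PLA2G4A, 11.1. SLCO2A1 at 0.454 ± 0.0760 stood below PTGER4 at 1.78 ± 0.472 in shSQLE. The order of PTGES2 and PTGS2 in shControl depended on the length used: with all exons summed, PTGES2 was at 17.0 and PTGS2 at 21.8, and their ranges overlapped. With that length PTGER4 and SLCO2A1 no longer overlapped in shControl (1.40 to 1.89 and 1.19 to 1.37), nor did PTGER2 and HPGD (0.208 to 0.517 and 0.0121 to 0.105).

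PTGER4 was the leading prostanoid receptor gene of these cells by level per length. Among the 9 receptor genes, PTGER4 held 33.8%, 45.6% and 51.0% of the summed level in shControl and 50.6%, 44.2% and 62.4% in shSQLE, with overlap. TBXA2R, the thromboxane receptor, was second with 25.1% ± 6.52 and 24.9% ± 3.91 (SD, n = 3 each). In shControl replicate 1 TBXA2R held 31.7%, close to the 33.8% of PTGER4. PTGER1 and PTGER3, the other receptors for prostaglandin E2, had 4 and 6 counts in all 6 libraries together, and PTGDR had 0.

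**Figure D3:**
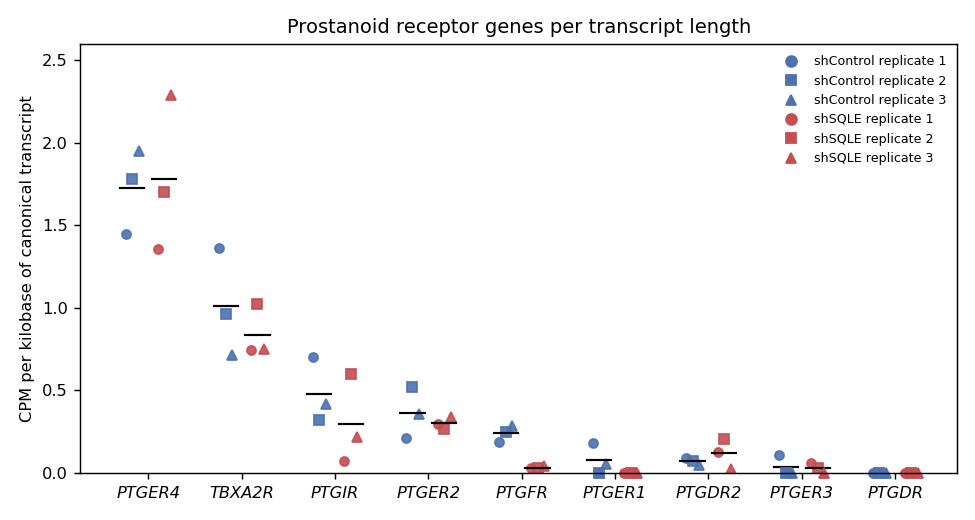
Level of the 9 prostanoid receptor genes as CPM per kilobase of canonical transcript in each library, with shControl in blue, shSQLE in red and group means as horizontal lines. PTGER4 has the highest mean in both groups, 1.73 and 1.78, with overlapping libraries, and PTGFR is the receptor whose shSQLE libraries all lie below its shControl libraries, on 53 counts against 7.

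Genes around the members were taken from 8 lists of 90 genes by function, none of them a member. Of these, 67 were tested, and 5 lower and 2 higher in shSQLE passed an adjusted p of 0.05 over all genes (edgeR's quasi-likelihood test), beside 2.84% and 0.369% of all genes. At an unadjusted p under 0.05, 12 were lower and 6 higher, beside 1231 and 601 of the 12450 genes tested. DESeq2 called 7 lower and 3 higher, beside 568 and 162 over all genes. The median log2 fold change of the 67 list genes was -0.12, and 8 of the 90 genes were at 0 in all 6 libraries. The counts by list below are to be read beside these counts over all genes. The lists were written with earlier results of these data known.

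Upstream of the cyclooxygenases, 0 of 11 tested genes of arachidonate release and re-esterification passed edgeR's quasi-likelihood test, and at an unadjusted p under 0.05 the count was 1 lower and 0 higher. DESeq2 also called 0. The gene counted as lower was PLA2G4C, with 15, 21 and 20 counts in shControl and 9, 8 and 7 in shSQLE. Its groups did not overlap, with a ratio of 2.35 at equal depth (95% exact interval 1.43 to 3.96). The log2 fold change of PLA2G4C was -1.22 (adjusted p = 0.069, edgeR's quasi-likelihood test). The 2 with the highest normalized counts, not corrected for length, were MGLL, a lipase that yields arachidonate from endocannabinoid, and ACSL4, which couples arachidonate to coenzyme A. Both had log2 fold changes of -0.13 (adjusted p = 0.68 and 0.88). ACSL4 was at -0.38 without shControl replicate 1, where its adjusted p was 0.00709. Among the 5 tested genes of other prostanoid synthases and reductases, AKR1C3 fell. AKR1C3, which reduces prostaglandins to forms of the F series, had normalized counts of 232, 194 and 192 in shControl and of 56.8, 64.1 and 62.7 in shSQLE. Its log2 fold change was -1.75 (SE 0.16, adjusted p = 0.00162, edgeR's quasi-likelihood test), lower in 3 of 3 libraries, and the call was kept in each of the 6 fits without 1 library. The close paralogs AKR1C1 and AKR1C2 can share reads with it, and they had at most 17 and 10 counts in a library. AKR1C1 was itself called lower, with 12, 12 and 17 counts in shControl and 2, 0 and 0 in shSQLE (adjusted p = 0.0246, edgeR). Of the 3 tested genes of other prostanoid receptors, 1 fell, PTGFR, the receptor of prostaglandin F2α, with 12, 20 and 21 counts in shControl and 2, 2 and 3 in shSQLE. All PTGFR counts in shSQLE were below those in shControl, with a ratio of 7.62 at equal depth (95% exact interval 3.45 to 19.9) and a log2 fold change of -2.86 (adjusted p = 0.0103, edgeR's quasi-likelihood test). The adjusted p of PTGFR was 0.0582 to 0.0742 in the 3 fits that left out a shSQLE library. Of the 5 genes of prostanoid breakdown and export, 0 passed edgeR's quasi-likelihood test, 0 had an unadjusted p under 0.05 in either direction, and DESeq2 called 0. The exporter ABCC4 had a log2 fold change of -0.05 (adjusted p = 0.96), -0.32 without shControl replicate 1 (adjusted p = 0.035), and the reductase PTGR3 one of -0.12 (adjusted p = 0.73). Of the 9 tested genes of the lipoxygenase, leukotriene and epoxide branches, 0 passed edgeR's quasi-likelihood test, with 1 lower and 1 higher at an unadjusted p under 0.05 and 0 called by DESeq2. Here MGST1 was at 0.12 (adjusted p = 0.65) and LTA4H, the gene counted as higher, at 0.26 (adjusted p = 0.30). ALOX12B, the gene counted as lower, was at -1.19 (adjusted p = 0.11, edgeR's quasi-likelihood test) with groups that did not overlap.

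Transcription factors and RNA-binding proteins known to act on PTGS2 were all detected. Of these 18 genes, 2 fell and 1 rose, with a median log2 fold change of -0.02. At an unadjusted p under 0.05, 3 were lower and 3 higher, and DESeq2 called EGR1, ZFP36L2 and JUN, as edgeR did. EGR1, an immediate early factor, fell from 607 ± 44.5 to 315 ± 24.5 (SD, n = 3 each) in normalized counts, and its log2 fold change was -0.94 (SE 0.13, adjusted p = 0.00791, edgeR). ZFP36L2, which binds AU-rich elements and promotes decay of mRNA, had a log2 fold change of -0.69 (adjusted p = 0.0163, edgeR), lower in 3 of 3 libraries. JUN, a subunit of AP-1, rose by 0.52 on the log2 scale (adjusted p = 0.0265, edgeR), from 2780 ± 68.5 to 3980 ± 174 normalized counts. With a library left out, EGR1 was called in 3 of 6 fits, not in those without a shSQLE library (adjusted p = 0.0545 to 0.0733). ZFP36L2 and JUN were each called in 1 of 6 fits, the fit without shControl replicate 1. The factors for the NF-kB, C/EBP and cAMP motifs marked in the PTGS2 promoter above did not pass: NFKB1 was at -0.06, RELA at 0.12, CEBPB at -0.28, CEBPD at -0.84 and CREB1 at -0.29 (adjusted p = 0.92, 0.80, 0.57, 0.22 and 0.60). These 5 genes were named for their motif, after their values were seen. For CEBPD all shSQLE libraries lay below all shControl libraries (unadjusted p = 0.0205, edgeR's quasi-likelihood test). For NFKB1, RELA, CEBPB and CREB1 the groups overlapped. These are RNA levels, and the protein and activity of the factors were not measured in these libraries.

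Among ligands and receptors known to induce PTGS2, 1 of 8 tested genes passed, IL1A, which was higher in shSQLE. At an unadjusted p under 0.05, 2 were lower and 2 higher, and DESeq2 called 1 lower, IL1R1, and 2 higher, IL1A and HBEGF. IL1A, the cytokine interleukin-1 alpha, rose from 792 ± 74.6 to 1888 ± 105 (SD, n = 3 each) in normalized counts, and its log2 fold change was 1.25 (SE 0.12, adjusted p = 0.00185, edgeR), with the call kept in all 6 fits without 1 library. IL1R1, a receptor of interleukin-1, had 18, 31 and 49 counts in shControl and 14, 9 and 13 in shSQLE. The groups did not overlap, with a ratio of 2.74 at equal depth (95% exact interval 1.85 to 4.13) and a log2 fold change of -1.43 that did not pass edgeR's quasi-likelihood test (adjusted p = 0.11). HBEGF, a ligand of EGFR, was at 0.45 (adjusted p = 0.13, edgeR). Among 8 tested cAMP-responsive genes, AREG, an EGFR ligand, fell, with 21, 35 and 36 counts in shControl and 13, 7 and 5 in shSQLE. Its log2 fold change was -1.87 (SE 0.36, adjusted p = 0.0348, edgeR), and it was called in 1 of 6 fits without 1 library, the fit without shControl replicate 1. At an unadjusted p under 0.05, 3 genes of this list were lower and 0 higher, and DESeq2 called 2 lower, AREG and PDE4D. The phosphodiesterase PDE4D was at -0.95 (adjusted p = 0.068) and the clock gene PER1 at -0.59 (adjusted p = 0.19) in edgeR's test. IL1R1, HBEGF, PDE4D and PER1 were named after their values were seen.

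**Figure D4:**
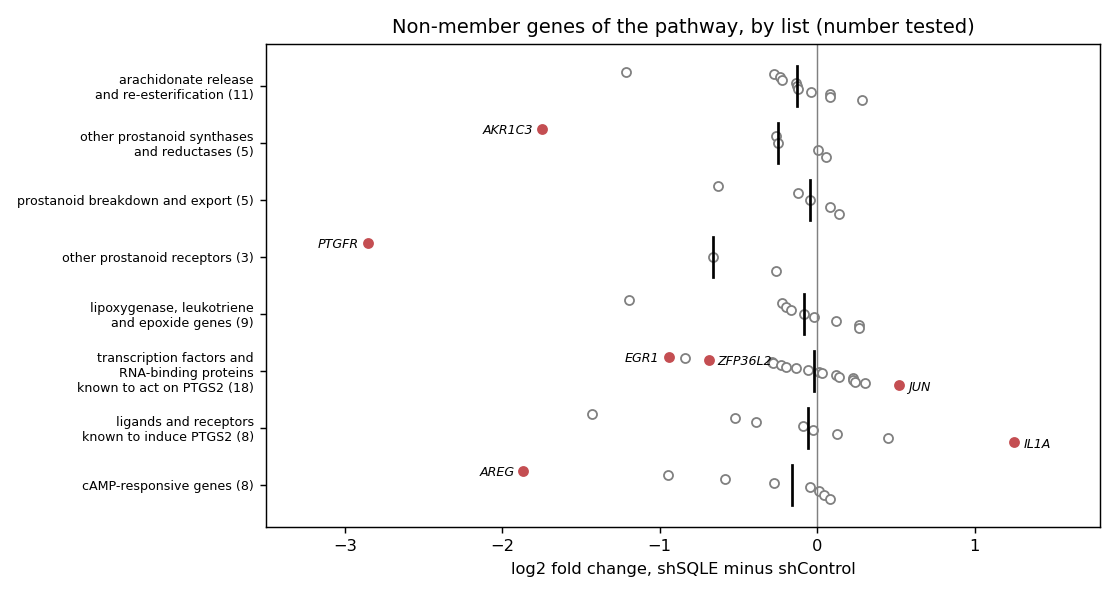
Log2 fold change of shSQLE minus shControl for 67 tested genes of 8 lists around the pathway, 1 point per gene. Filled red points with names passed an adjusted p under 0.05 (edgeR's quasi-likelihood test), open points did not, and black lines are list medians. The 5 called lower are AKR1C3, PTGFR, EGR1, ZFP36L2 and AREG, the 2 called higher are JUN and IL1A, and 7 of the 8 medians lie between -0.25 and -0.02, the other being the median of the 3 receptor genes at -0.66.

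The genes whose log2 CPM followed that of PTGS2 most closely over the 6 libraries were sought among 9872 genes whose normalized count averaged at least 100. Leading were SMAD7 and IFIT2 (Pearson's r of 0.999 for both), followed by SQLE itself, UBE2H and ZC3HAV1 (0.999, 0.998 and 0.998). Each of them was lower in all 3 shSQLE libraries than in any shControl library, and the groups and the low value of shControl replicate 1 set most of this likeness, so that it is a description over 6 libraries only. The normalized counts of SQLE were 1349, 1867 and 1924 in shControl and 229, 204 and 219 in shSQLE, near those of PTGS2. Among members, PTGS2 had an r of 0.973 with PLA2G4A, 0.962 with SLCO2A1 and 0.954 with PTGES, over the same 6 libraries and with the same groups behind each value.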

How the data were processed

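The 6 RNA-seq libraries of U2OS cells, 3 shSQLE and 3 shControl, were grouped by the genotype in the sample labels. The deposited table holds raw counts, which the authors made by trimming reads with fastp 0.20.0, aligning them to hg38 with STAR 2.7.9a and counting with featureCounts 2.0. Annotation release, strand setting and treatment of multi-mapping reads are not given in the sources used here.

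Counts were filtered with filterByExpr and fitted with edgeR 4.0.16 in R 4.3.3 (TMM, group only, quasi-likelihood test), with Benjamini-Hochberg adjustment at 0.05 over all 12450 genes tested. The steps were tested on simulated counts. Totals of 12212378 to 14393292 counts set the precision, and a count of 0 was taken to allow 3 counts. Intervals are exact at 95% and cover counting error only. Log2 CPM used a prior count of 2. Lengths came from GENCODE v44 and promoters from RefSeq (GRCh38.p14).

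The members and lists were chosen with earlier results of these data known. The genes named are the 10 members, in each list at most 3 of those past the adjusted p, taken by smallest p, or the 2 most abundant where none passed, the 5 genes most like PTGS2, and SQLE. Beside the marker genes of the cell type lists, neighbours of PTGS2, paralogs of AKR1C3, factors for the promoter motifs, other prostanoid receptors and list genes that only DESeq2 or an unadjusted p called were named outside this rule, after their values were seen. DESeq2 1.42.0, other size factors and filters, a replicate block, leaving out each library and smooth trends on GC content and length (mgcv 1.9.3) were the alternatives. Some marker genes are not reported here.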

Additional observations from a re-analysis of the deposited data

How the results depend on the processing

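The members PTGS2, PLA2G4A, PTGES and SLCO2A1 were lower in shSQLE under every alternative run, from -3.17 to -2.87, -1.48 to -1.13, -1.80 to -1.58 and -1.99 to -1.75 on the log2 scale when 1 library was left out, and from -3.04 to -2.88, -1.34 to -1.21, -1.72 to -1.67 and -1.89 to -1.79 under the other alternatives. PTGES3 was at 0.13 with library size only. Members past the adjusted p numbered 3 to 4 lower and 0 to 1 higher when 1 library was left out. PLA2G4A was then past it only without shControl replicate 1, while PTGS2, PTGES and SLCO2A1 were past it in every such fit. With GC content and length taken out, an alternative chosen after seeing the data, 1 member was higher, PTGES2. Because the pathway was proposed from this contrast, nothing is read from these calls of members, in any fit.

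Over all genes, DESeq2 called 568 lower and 162 higher, the fit with GC content and length taken out 1080 and 1510, and fits that left out 1 library 101 to 2300 lower and 4 to 1964 higher, both highest without shControl replicate 1. The median over all genes tested was -0.01 and became 0.06 with GC content and length taken out. Of the non-member list genes, 3 were lower with at least 10 counts in every sample, 14 were lower and 7 higher with GC content and length taken out, and 1 to 15 were lower and 1 to 6 higher when 1 library was left out. The cause of these shifts was not tested.

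Deviations of same-numbered libraries from their group means had correlations of 0.14, -0.43 and 0.54. Whether the replicate numbers pair the samples cannot be told from these values, as shControl replicate 1 stood far from the other controls. With the replicate block, 362 genes were lower and 34 higher, the member PTGS2 was at -2.97, 4 members were lower, and 1 non-member list gene was higher, as JUN lost its call (adjusted p = 0.0725, edgeR). The counts of PTGER2, HPGD, PTGS1 and PTGFR limit what could be detected for them.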
